A study of Mus musculus with 6 samples.

Results

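The BCL2 family was followed in mouse macrophages through 9 of the 10 genes named for it: the survival members Bcl2, Bcl2l1, Mcl1 and Bcl2a1a, and the death members Bcl2l11, Bak1, Bid, Bbc3 and Pmaip1. Members were found by their gene symbol in the platform annotation, which gave 1 feature for each of these 9 among 25206 features on the array. The tenth, Bax, was not analysed here. The cells were peritoneal macrophages collected on day 4 after thioglycollate broth, a sterile irritant, had been injected to draw monocytes into the abdominal cavity. They came from 3 Tet2-/- mice, labelled as lacking the DNA 5-methylcytosine oxidase TET2, and from 3 wild-type (WT) littermates, all on the C57BL/6J background. Cultures of both genotypes had been exposed for 10 h to 10 ng/mL lipopolysaccharide (LPS), which bacteria carry and toll-like receptor 4 senses, and to 2 ng/mL interferon gamma, so no unstimulated cells entered any comparison. The labels name neither the Tet2 allele nor any Cre driver, and give no age of the mice.

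BCL2 family proteins decide whether the outer mitochondrial membrane stays closed. Survival members hold the pore-forming proteins BAX and BAK in check, whereas BH3-only members, such as BIM, BID, PUMA and NOXA, bind the survival proteins or activate the pore formers directly. Once the membrane opens, cytochrome c reaches the cytosol and the apoptosome activates caspases. In macrophages and other myeloid cells MCL-1 and A1 are known survival proteins, and A1 is a classic NF-kB target after LPS. Much of the family is also controlled after transcription, by protein turnover, phosphorylation or cleavage, which expression arrays do not see.

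None of the 9 members passed the test for a genotype difference. Bcl2 and Bcl2l11 were higher in every Tet2-/- array than in every WT array, and Bcl2l1, Bbc3 and Bak1 were lower. Such a lack of overlap was seen for 22.0% of all features (9.74% higher and 12.2% lower). The limma adjusted p-values of these 5 members lay between 0.247 and 0.719. Each direction held both classes: the higher pair was a survival and a death gene, and the lower genes were 1 survival and 2 death genes. Every 95% interval for the fold stayed within 2-fold either way. The widest bounds were 1.74-fold for Bcl2 at the top and 0.610-fold for Bbc3 at the bottom.

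Because TET2 acts on methylated CpG, the letters around the transcription start are shown for 3 members that differ in CpG content: Bcl2, Bbc3 and Bcl2a1a. Each window holds the 250 bases before and 50 after a RefSeq transcription start (assembly GRCm38.p6, 5′ to 3′ on the gene's strand), with every CG dinucleotide in capitals. For Bbc3, which has several annotated starts, the most upstream window is shown. The windows lie at chr1:106714241-106714540 on the minus strand for Bcl2, chr7:16309333-16309632 on the plus strand for Bbc3 and chr9:88956670-88956969 on the plus strand for Bcl2a1a.
Bcl2: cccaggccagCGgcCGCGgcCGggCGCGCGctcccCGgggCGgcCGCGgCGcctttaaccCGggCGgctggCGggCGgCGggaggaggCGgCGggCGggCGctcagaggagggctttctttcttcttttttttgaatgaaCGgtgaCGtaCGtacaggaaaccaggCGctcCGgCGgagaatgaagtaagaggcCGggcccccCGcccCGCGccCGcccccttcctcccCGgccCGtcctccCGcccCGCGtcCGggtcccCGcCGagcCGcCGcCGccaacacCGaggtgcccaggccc
Bbc3: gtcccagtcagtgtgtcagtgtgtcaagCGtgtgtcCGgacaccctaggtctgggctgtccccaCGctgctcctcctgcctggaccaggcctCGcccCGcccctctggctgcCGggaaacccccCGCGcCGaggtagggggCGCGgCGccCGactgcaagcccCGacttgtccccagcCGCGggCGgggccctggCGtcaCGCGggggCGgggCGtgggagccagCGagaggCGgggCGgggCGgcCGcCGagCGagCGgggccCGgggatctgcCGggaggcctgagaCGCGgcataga
Bcl2a1a: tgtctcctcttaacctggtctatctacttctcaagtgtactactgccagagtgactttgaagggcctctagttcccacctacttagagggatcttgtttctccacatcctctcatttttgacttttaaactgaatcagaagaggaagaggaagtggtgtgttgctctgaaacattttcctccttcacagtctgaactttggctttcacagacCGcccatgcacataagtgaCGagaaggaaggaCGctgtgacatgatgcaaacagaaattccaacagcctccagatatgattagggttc

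The Bcl2 window held 44 CG dinucleotides, the Bbc3 window 34 and the Bcl2a1a window 3. Over all 32851 RefSeq windows of this length the median was 7, and 94.6% held at least 1. CG reads the same on both strands, so each site counts once. RefSeq windows were read for 8 of the 9 members, 13 windows in all, and none was read for Pmaip1. Mcl1 had 33 CG dinucleotides, Bid 22 and Bak1 11, while the 2 windows of Bcl2l11 had 27 and 38. The 3 windows of Bcl2l1 had 1, 14 and 22, and the further windows of Bbc3 had 30 and 39. Bcl2, Bbc3 and Mcl1, with CpG-rich windows, had log2 changes of 0.40, -0.38 and -0.02, none past the threshold. A link between CpG counts and genotype changes was not tested. Methylation itself was not measured, so these counts describe sequence only.

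Values are log2 expression after RMA, in which the authors corrected background, normalized the arrays to each other and summarised probes. Array medians were 3.47, 3.60 and 3.51 in Tet2-/- replicates 1, 2 and 3, against 3.54, 3.66 and 3.58 in WT replicates 1, 2 and 3. They had the same order by replicate number in both genotypes, and each Tet2-/- median was below the WT median of the same number. Pearson correlations over all features were 0.983 to 0.987 between genotypes, 0.989 to 0.991 within Tet2-/- and 0.988 to 0.990 within WT. The Tet2 feature did not show a loss of transcript in arrays carrying the Tet2-/- label, with log2 levels of 5.55, 5.25 and 5.75 there against 5.40, 5.07 and 5.10 in WT (log2 change 0.32 ± 0.16 SE, limma adjusted p = 0.365). Where its probes lie relative to the deletion is not given in the sources used here, so every direction rests on the sample labels. Changes are Tet2-/- minus WT with the limma standard error, from a fit over all features, n = 3 arrays per genotype, and p-values adjusted by Benjamini-Hochberg over all 25206 features. The levels of different genes cannot be set against each other on this scale. The mean signal of all 9 members was above that of the median feature, so all stayed in the alternative fit without dim features. This signal does not rank their transcripts by abundance.

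**Figure D1:**
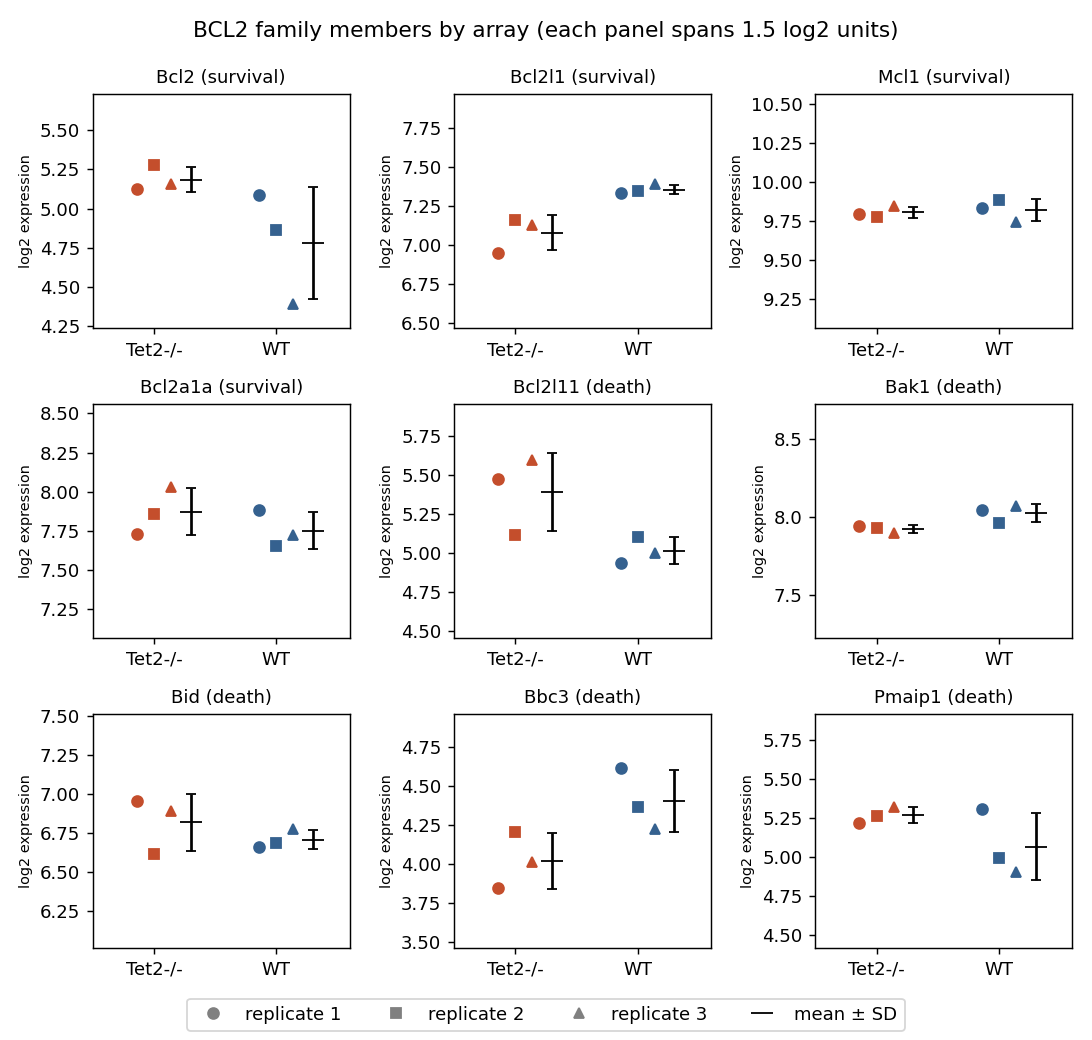
Log2 expression of each BCL2 family member in the 3 Tet2-/- arrays (orange, left) and the 3 WT arrays (blue, right), one panel per gene, each panel spanning 1.5 log2 units; marker shapes give the replicate number and black bars the mean ± SD. Bcl2 and Bcl2l11 sit higher and Bcl2l1, Bbc3 and Bak1 lower in all Tet2-/- arrays, while the groups overlap for the other 4 members. Over all features, 22.0% showed no overlap between the groups.

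Among the survival members, Bcl2, the founder of the family, had log2 levels of 5.12, 5.28 and 5.15 in Tet2-/- macrophages against 5.09, 4.87 and 4.39 in WT macrophages. The groups did not overlap, but the nearest arrays were only 0.037 apart, and WT replicate 3 was the lowest of the 6. The change was 0.40 ± 0.18 (1.32-fold, 95% interval 1.01 to 1.74), with a limma adjusted p = 0.300. Without WT replicate 3 it was 0.21 (adjusted p = 0.605). Within WT the SD of 0.36 was the largest of any member in either genotype, against 0.081 in Tet2-/-.

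Bcl2l1, which encodes the survival protein BCL-XL, ran the other way. Its log2 levels were 6.95, 7.16 and 7.13 in Tet2-/- macrophages against 7.33, 7.34 and 7.39 in WT macrophages. All Tet2-/- arrays were below all WT arrays, with a gap of 0.17, the widest between the groups of any member. The change was -0.28 ± 0.12 (0.826-fold, 95% interval 0.689 to 0.989), with a limma adjusted p = 0.285. The 3 WT arrays lay close together (SD 0.030).

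Mcl1, a short-lived survival protein's gene, was nearly level between genotypes. Tet2-/- macrophages had 9.79, 9.77 and 9.84, and WT macrophages 9.83, 9.88 and 9.74 on the log2 scale. The groups overlapped fully, and the change of -0.02 ± 0.11 had a 95% interval of 0.831- to 1.18-fold (limma adjusted p = 0.966). Mcl1 had the smallest change of the 9 members.

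Bcl2a1a, one of several mouse copies that encode the NF-kB-inducible survival protein A1, had log2 levels of 7.73, 7.85 and 8.03 in Tet2-/- macrophages against 7.88, 7.65 and 7.72 in WT macrophages. The groups overlapped. Its change was 0.12 ± 0.13 (95% interval 0.889- to 1.33-fold, limma adjusted p = 0.711), and it was 0.04 without Tet2-/- replicate 3 and 0.19 without Tet2-/- replicate 1. The copies are close to each other in sequence: the start windows of Bcl2a1a and Bcl2a1b share an identical run of 174 bases, and those of Bcl2a1a and Bcl2a1c one of 81. Whether the probes tell the copies apart is not given in the sources used here, so each of these 3 values is uncertain as a measure of a single copy. The other copies gave changes of 0.04 ± 0.12 for Bcl2a1b and 0.17 ± 0.15 for Bcl2a1c, neither past the threshold.

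Among the death members, Bak1 encodes BAK, which forms the pore itself. Its log2 levels were 7.95, 7.93 and 7.90 in Tet2-/- macrophages against 8.04, 7.96 and 8.07 in WT macrophages. The groups did not overlap by a margin of 0.013, and the change of -0.10 ± 0.11 was small (95% interval 0.786- to 1.11-fold, limma adjusted p = 0.719). Bak1 had the smallest spread of any member within Tet2-/- (SD 0.024).

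Bcl2l11 encodes BIM, a BH3-only protein that binds all the main survival proteins. It had 5.473, 5.114 and 5.594 on the log2 scale in Tet2-/- macrophages against 4.939, 5.105 and 5.003 in WT macrophages. Tet2-/- replicates 1 and 3 stood clear of WT, whereas Tet2-/- replicate 2 was only 0.0086 above the highest WT array. The change was 0.38 ± 0.15 (1.30-fold, 95% interval 1.03 to 1.63), and its limma adjusted p = 0.247 was the lowest of the family, together with that of Bbc3. Leaving out 1 array gave changes of 0.28 without Tet2-/- replicate 3 (limma adjusted p = 0.533) to 0.52 without Tet2-/- replicate 2 (0.116).

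Bbc3 encodes PUMA, a BH3-only protein and textbook target of p53. It had 3.85, 4.20 and 4.02 in Tet2-/- macrophages against 4.62, 4.37 and 4.22 in WT macrophages on the log2 scale. Every Tet2-/- array was lower, though the nearest pair differed by 0.020. The change was -0.38 ± 0.15 (0.768-fold, 95% interval 0.610 to 0.967, limma adjusted p = 0.247). Bim and Puma transcripts therefore had changes of nearly equal size and opposite sign.

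Bid, whose product is cleaved by caspase 8 and links death receptors to mitochondria, had log2 levels of 6.96, 6.61 and 6.89 in Tet2-/- macrophages against 6.66, 6.69 and 6.77 in WT macrophages. Tet2-/- replicate 2 was the lowest of the 6 arrays and the groups overlapped. The change was 0.11 ± 0.13 (limma adjusted p = 0.735), and it was 0.04 without Tet2-/- replicate 1 and 0.22 without Tet2-/- replicate 2. Pmaip1, which encodes NOXA, a BH3-only protein that binds MCL-1 and A1, had 5.22, 5.26 and 5.32 in Tet2-/- macrophages against 5.31, 4.99 and 4.90 in WT macrophages. WT replicate 1 lay within the Tet2-/- range, while the other 2 WT arrays were below it. Its change was 0.20 ± 0.14 (95% interval 0.930- to 1.42-fold, limma adjusted p = 0.528), and it was 0.12 without WT replicate 3 and 0.32 without WT replicate 1.

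**Figure D2:**
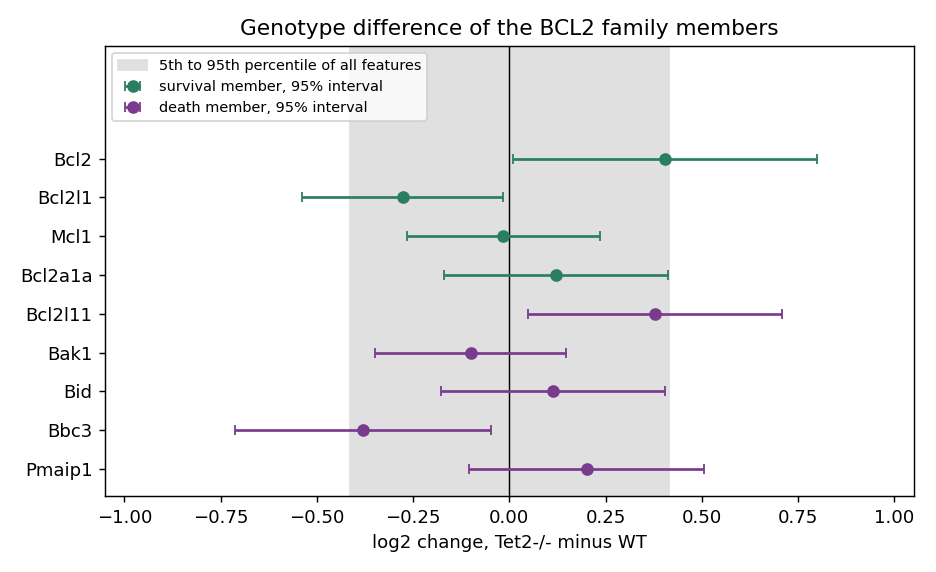
Log2 change (Tet2-/- minus WT, horizontal axis) of the 4 survival members (green) and 5 death members (purple) with 95% intervals of the limma fit; the grey band spans the 5th to 95th percentile of the changes of all features, -0.41 to 0.41. All 9 point estimates lie inside the band, the outermost being Bcl2 at 0.40 and Bbc3 at -0.38.

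Over the family, 0 of 9 members passed an adjusted p of 0.05, where 0.952% of all features did (240; 163 or 0.647% higher and 77 or 0.305% lower). The smallest absolute change among those 240 was 0.58, against a largest absolute member change of 0.40. At an unadjusted p under 0.05 there were 4 of 9 members (Bcl2, Bcl2l1, Bcl2l11 and Bbc3), against 16.0% of all features. Groups did not overlap for 5 of 9 members, 2 higher and 3 lower, against 22.0% of all features (9.74% higher and 12.2% lower). A positive change was seen for 5 of 9 members, against 42.1% of all features. With 9 genes chosen by name, and with earlier results of these data known, no test was made of any of these shares. The median change was 0.11 over the members and -0.04 over all features. The 95% interval lay within 1.5-fold either way for 6 members, the exceptions being Bcl2, Bcl2l11 and Bbc3.

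The survival and death classes had nearly equal mean changes. The 4 survival members had a median log2 change of 0.05 (2 positive, 2 negative) and the 5 death members one of 0.11 (3 positive, 2 negative). Their means were 0.06 and 0.04, a difference of 0.02. Array by array, each member was set against its own mean over the 6 arrays, and the mean deviation of the death members was subtracted from that of the survival members. This gave -0.08, 0.10 and 0.00 in Tet2-/- replicates 1, 2 and 3, against 0.03, 0.02 and -0.08 in WT replicates 1, 2 and 3. The genotypes overlapped, and the difference of 0.02 was below the SD of 0.076 between arrays of one genotype. Its sign turned to -0.06 when medians replaced means, to -0.03 without Tet2-/- replicate 2 and to -0.02 without WT replicate 3. Both classes were high together in Tet2-/- replicate 3 and WT replicate 1, and low together in WT replicates 2 and 3.

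**Figure D3:**
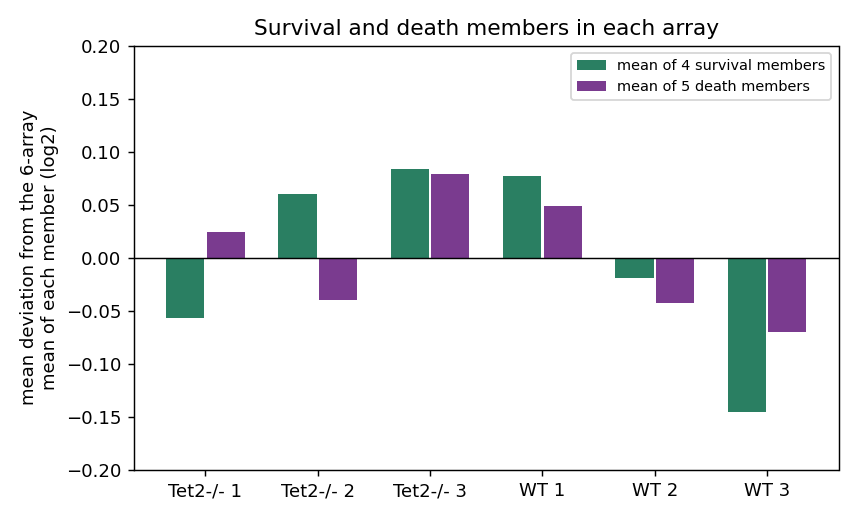
Mean deviation of the 4 survival members (green) and the 5 death members (purple) from each member's own 6-array mean (log2 scale) in the 3 Tet2-/- arrays and the 3 WT arrays. The survival bars run from -0.06 to 0.08 in Tet2-/- and from -0.15 to 0.08 in WT, and the death bars from -0.04 to 0.08 in Tet2-/- and from -0.07 to 0.05 in WT.

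The wider pathway was read from 4 lists of 43 genes, of which 39 were measured here and 0 rose or fell past the threshold. Their median change was -0.02, with 19 positive and 20 negative, and 4 of 39 had an unadjusted p under 0.05 (10.3%, against 16.0% of all features). The groups did not overlap for 5 of 39 (12.8%, against 22.0% of all features). Other survival members had 0 of 4 past the threshold. Besides the A1 copies, Bcl2l2, which encodes BCL-W, had a log2 change of 0.06 ± 0.13 and Bcl2l10 had -0.20 ± 0.15. Other death members and relatives had 0 of 11 past it, 8 of them negative, with a median of -0.08. The mitophagy receptor gene Bnip3l had -0.32 ± 0.22 (limma adjusted p = 0.536), with Tet2-/- replicate 1 at 8.20 above all WT arrays and the other 2 Tet2-/- arrays at 7.37 and 7.36 below them. The BH3-only gene Hrk had -0.16 ± 0.13, Bcl2l14 had -0.14 ± 0.15 and Bcl2l13 had 0.17 ± 0.20.

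Of 15 genes for steps after the mitochondrion, 0 passed. Casp9, the initiator caspase of the apoptosome, came closest, with log2 levels of 5.20, 4.98 and 5.30 in Tet2-/- macrophages against 5.55, 5.56 and 5.71 in WT macrophages. All Tet2-/- arrays were lower (log2 change -0.45 ± 0.13, 95% interval 0.601- to 0.895-fold), but the limma adjusted p = 0.131 missed the threshold. Htra2, a mitochondrial protease that binds inhibitor-of-apoptosis proteins, had -0.34 ± 0.16 and the outer membrane channel Vdac1 had -0.23 ± 0.12. Aifm1, encoding apoptosis-inducing factor, had 0.29 ± 0.16. Of 9 genes whose products act on family members, 0 passed, and 3 had higher levels in every Tet2-/- array, against 9.74% of all features. These were Huwe1, a ubiquitin ligase for MCL-1 (0.42 ± 0.13, limma adjusted p = 0.158), Usp9x, a deubiquitinase of MCL-1 (0.29 ± 0.13, limma adjusted p = 0.300), and Casp8, the protease that cleaves BID (0.32 ± 0.13, limma adjusted p = 0.285). Ywhaz, a 14-3-3 protein of the class that holds BAD, had -0.22 ± 0.14.

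**Figure D4:**
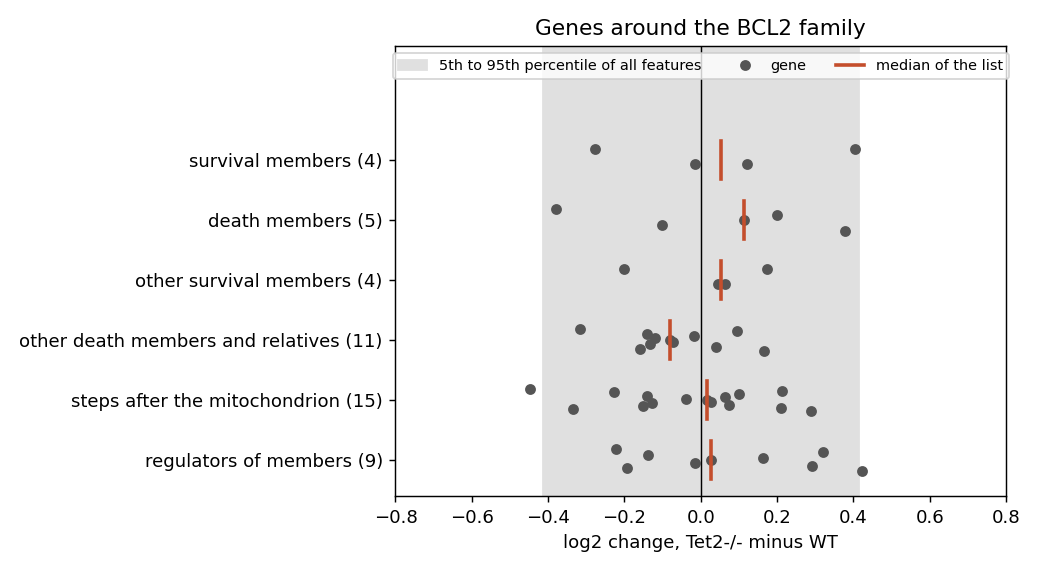
Log2 change (Tet2-/- minus WT, horizontal axis) of every measured gene in the 2 member classes and the 4 lists around them, with the number of genes in parentheses; the orange line is the list's median and the grey band the 5th to 95th percentile of all features. The list medians lie between -0.08 and 0.11, and only Casp9 at -0.45 and Huwe1 at 0.42 fall outside the band.

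Among macrophage markers, Cd68 averaged 10.67 on the log2 scale in both genotypes and Adgre1 10.20 in Tet2-/- and 10.05 in WT. Since levels of different genes cannot be set against each other, marker levels do not give the share of each cell type. Some macrophage markers moved with genotype. Of 8 markers of resident peritoneal macrophages, 3 rose (Prg4, Timd4 and Cd5l), where 0.647% of all features did. All 8 had a positive change, against 42.1% of all features, but the groups overlapped for Gata6, Selp and Garnl3. The mean log2 level over the list was 6.42 to 6.84 in Tet2-/- arrays and 5.73 to 6.05 in WT arrays. Of 7 general macrophage markers, 2 rose (Itgam and Cd14), again against 0.647% of all features. Of the same 7, 5 had a positive and 2 a negative change, those of Fcgr1 (-0.51 ± 0.19, limma adjusted p = 0.230) and Mertk (-0.10 ± 0.12). Their part in the member values was not tested, and in these bulk samples a different mix of cells and a different amount of RNA per cell cannot be told apart. B-cell markers, of interest since lymphocytes express Bcl2, had mean log2 levels of 3.35 to 4.57 in Tet2-/- arrays and 3.70 to 4.16 in WT arrays, with 0 of 5 past the threshold. By array the B-cell levels were 4.57, 3.35 and 3.84 in Tet2-/- replicates 1, 2 and 3, against 4.16, 3.72 and 3.70 in WT replicates 1, 2 and 3, and their part in the Bcl2 values was not tested. Neutrophil markers averaged 3.47 to 3.61 in Tet2-/- and 3.52 to 3.58 in WT, with 0 of 8 past the threshold, 2 positive and 6 negative. This average hides S100a8, at 7.67, 8.87 and 8.26 in Tet2-/- against 7.87, 7.96 and 7.38 in WT (0.53 ± 0.28, limma adjusted p = 0.397). The lists for T and NK cells (0 of 6) and for eosinophils and mast cells (0 of 6) had none past the threshold. Of 7 markers of mesothelium and fibroblasts, Pdgfrb alone rose, where 0.647% of all features did, and 5 had a positive and 2 a negative change. Col1a1 and Col3a1 did not pass (limma adjusted p = 0.604 and 0.638), and both were highest in Tet2-/- replicate 2, at 7.37 and 5.59.

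The genes whose 6 array values ran most like those of Bcl2l11, the member with the smallest p, were Tmem127 (Pearson r = 0.988), H60b (0.985) and Arntl (0.984). These are the extremes of a search over all named genes with 6 arrays, and the arrays share the genotype split. None of the 3 passed the threshold (limma adjusted p = 0.421, 0.183 and 0.444).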

How the data were processed

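Total RNA of 6 cultures, 3 per genotype, was hybridised to Affymetrix whole-transcript arrays. The deposited values are log2 expression that the authors made by RMA; per the submitters' processing notes, affy 1.36.1 was the package. The sources used here do not give the array model, the probes behind each feature, the genome build or filters. Since RMA brings the arrays to nearly the same distribution, a shift shared by every gene would be lost, and levels near the floor understate folds. Over 15 pairs of arrays, the lowest share of features that differed was 99.66%. The platform annotation named 1 gene for 23185 of 25206 features, several for 0 and none for 2021, which were tested but not named. Symbols were updated through the RefSeq table of assembly GRCm38.p6.

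Tet2-/- was compared with WT with limma 3.58.1 (R 4.3.3; lmFit, eBayes; two-sided) over all features as deposited, with Benjamini-Hochberg adjustment and a threshold of 0.05. Samples are biological replicates per the labels, from 3 mice per genotype per the series design. The number of arrays limits the precision, and a permutation test of 3 against 3 cannot go below p = 0.1, so none was used. The fit was checked on simulated data with log2 changes of 1 and 2 only. Both exceed every member change, so the check does not cover changes of the members' size. Members and lists were chosen with earlier results of these data known, and the survival and death classes were compared without a test. Named were the members, Tet2, and in each list every gene past the threshold and up to 4 with the smallest p; marker genes and the remaining A1 copies were named for their role. Alternatives were 2 other scalings, a filter on dim features, a replicate block, another prior, array weights, features with 1 symbol, other thresholds, each array left out and, for the 2 classes, medians and a longer list of family genes.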

Additional observations from a re-analysis of the deposited data

How the results depend on the processing

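No member passed the threshold under any of the 13 alternatives run for it (117 fits, lowest adjusted p = 0.116, for Bcl2l11 without Tet2-/- replicate 2), and the largest absolute change was 0.56, for Bcl2 without WT replicate 1. For 8 members the sign held throughout. Mcl1 alone changed sign, to 0.050 after median centring, 0.0056 with array weights and 0.016 without WT replicate 2; leaving out 1 array gave -0.054 to 0.016. The survival minus death difference of 0.02 turned to -0.060 with medians, was 0.073 with the lists of other family genes added to the 2 classes, and ranged from -0.030 to 0.061 without 1 array, negative without Tet2-/- replicate 2 (-0.030) or WT replicate 3 (-0.018). The labels do not say whether same-numbered arrays belong together, so they were not paired in the main fit. Correlations of their deviations were 0.084, 0.19 and 0.025, but array medians had the same order by replicate number in both genotypes. A replicate block gave 230 features past the threshold and no member (limma adjusted p = 0.249 to 0.964). The count of 240 features was 846 without dim features, 814 with a trended and robust prior, 498 with array weights and 11 to 155 without 1 array. At adjusted p under 0.01, 0.1 and 0.25 it was 21, 791 and 3026, holding 0, 0 and 2 members (Bcl2l11 and Bbc3). The share of higher calls was 67.9% as deposited, 78.8% centred and 59.6% with cyclic loess. The brightest feature of a gene was not run, since each gene had 1 feature. The cause of these differences was not tested.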
